A study of Mus musculus with 10 samples.

Results

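The genes that carry a cell from rest through G1 into S phase were examined in pancreatic islets of young Men1 heterozygous and wildtype mice: the D cyclins Ccnd1, Ccnd2 and Ccnd3, their kinases Cdk4 and Cdk6, the pocket protein gene Rb1, the transcription factor gene E2f1, and the E cyclins Ccne1 and Ccne2 with their kinase gene Cdk2. The 10 genes were chosen by name, and all 29 probe sets that the platform annotation gives them were taken, of 45037 probe sets without controls on the array. The islets of 5 Men1 heterozygous mice were set against those of 5 wildtype littermates. All 10 mice were female, 5 weeks old and of the strain C57 on a 129 background. Roughly 100 islets per mouse made 1 RNA sample and 1 array, so the replicates are separate mice. The labels do not describe the altered Men1 allele.

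In the G1 pathway, D cyclins bind CDK4 or CDK6 in response to growth signals, and these kinases phosphorylate RB, which then lets go of E2F factors. Freed E2F switches on genes of DNA synthesis and the E cyclins, which with CDK2 complete the phosphorylation of RB. Beta cells are known to rely on CDK4 and cyclin D2 for their growth after birth in mice. Menin, the product of Men1, restrains islet cell growth, in part through genes of CDK inhibitors.

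The samples held the markers of the labelled tissue. All 10 islet genes checked were above the filter, with Ins2, insulin, between 16.2 and 16.4 on the log2 scale in every mouse and Gcg, glucagon, between 16.2 and 16.5. Acinar genes were also bright, with a list mean of 16.37 to 16.57 in heterozygous and 16.47 to 16.60 in wildtype islets. The mean of 10 stromal genes ranged from 8.91 to 10.50 in heterozygous and from 9.81 to 10.51 in wildtype islets, and all 10 were lower on average in heterozygous islets. Of 11 lymphocyte genes 6 were measured and 6 were higher on average in heterozygous islets, Cd3e, Cd3d, Cd3g and Cd79b did not pass the filter, and the list mean ranged from 4.72 to 6.93 in heterozygous and from 4.83 to 5.56 in wildtype islets. Heterozygous replicates 2 and 5 stood apart in this list, at 6.93 and 6.43. The 3′ minus 5′ difference of the Gapdh control probe sets, a measure of RNA shortening, was 3.24 to 3.70 in heterozygous and 3.32 to 3.46 in wildtype samples on the log2 scale. For the beta-actin controls it was 2.97 to 3.65 in heterozygous and 2.96 to 3.41 in wildtype samples. All 10 samples went through 2 amplification cycles, and whether these bear on the size of such differences was not tested. Men1 itself averaged 6.42 ± 0.30 in heterozygous and 6.89 ± 0.39 in wildtype islets (SD, n = 5 each) on its 1 probe set above the filter. Where its probes lie relative to the altered part of the gene is not given, so this does not check the labels.

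The values are log2 expression values, 1 per probe set and mouse, made by the submitters with GCRMA, and a probe set was compared if it lay above 4 on at least 5 of the 10 arrays. All 10 genes had at least 1 such probe set, and 23 of the 29 probe sets passed. Ccnd1 passed with 3 of 3 probe sets, Ccnd2 with 7 of 7, Cdk4 with 3 of 3 and Ccne2 with its 1 probe set. Ccnd3, Cdk6 and E2f1 passed with 2 of 3 each, and Ccne1, Cdk2 and Rb1 with 1 of 2 each. Of the 23 that passed, 22 lay above 4 in all 10 mice, and the exception was Cdk2, at 8 of 10. Of the 6 that did not pass, 5 never reached 4 in any mouse, with values of 3.04 to 3.37 for Ccnd3, 2.72 to 2.92 for Cdk2, 2.37 to 2.42 for Cdk6, 2.10 to 2.15 for E2f1 and 2.49 to 2.61 for Rb1. The other, of Ccne1, is described with the E cyclins. Probes differ in how brightly they bind, so levels are not compared between probe sets or genes, and a transcript of fewer cells cannot be told apart from less transcript per cell in these whole islets. In this array's naming, an ending of _x_at marks probes that may also bind other sequences, _s_at probes shared by several transcripts or genes, and _a_at probes shared by transcripts of 1 gene.

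None of the 10 genes differed between genotypes beyond the spread between mice. With limma, 0 of the 23 member probe sets passed an adjusted p of 0.05 over all 18567 probe sets compared, where 0% of all probe sets did. Without adjustment 0 of 23 had a p under 0.05, where 4.09% of all did (2.57% higher and 1.52% lower in heterozygous islets). In 0 of 23 were the groups separate, where 0.7% of all were (0.528% higher and 0.172% lower). The smallest p among them was 0.115, for E2f1, and every one had an adjusted p of 0.9999. Taking the brightest probe set per gene, 5 genes were higher and 5 lower on average in heterozygous islets, from -0.28 for Ccnd3 to 0.29 for Ccne2. Their median difference was -0.038, beside 0.014 over all 10538 genes, of which 54.4% were higher in heterozygous islets. Each difference is the heterozygous mean minus the wildtype mean in log2 units, with the standard error (SE) and the 95% interval from the fit. The half-widths of these intervals ran from 0.27 to 0.91 for the 10 genes, or from 1.20-fold to 1.87-fold. With 5 mice per genotype a difference smaller than its half-width could not be called. A larger one could also miss the adjusted threshold, since the intervals are not adjusted over all probe sets. The median half-width over all probe sets compared was 0.33.

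**Figure D1:**
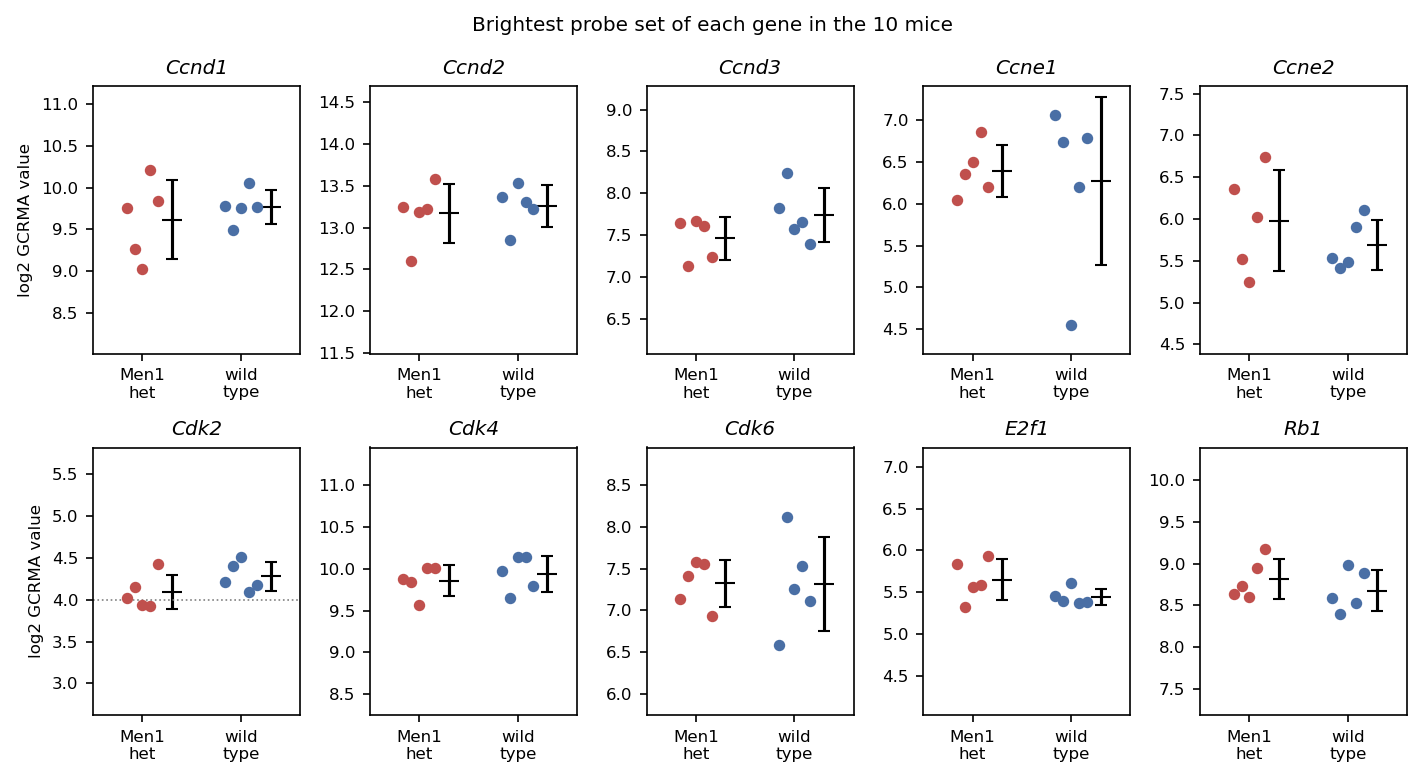
Log2 expression value of the brightest probe set of each of the 10 genes in each mouse, Men1 heterozygous mice left and wildtype mice right, with mean and SD (n = 5 each); each panel spans the same range of log2 values and the dotted line in the Cdk2 panel marks the filter value of 4. The groups overlap in every panel, and wildtype Ccne1 holds the widest spread, from 4.55 to 7.06.

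Cyclin D1, encoded by Ccnd1, is the D cyclin most responsive to growth factors. Its brightest probe set, 1448698_at, stood at 9.75, 9.26, 9.02, 10.21 and 9.84 in heterozygous replicates 1 to 5. In wildtype replicates 1 to 5 it stood at 9.78, 9.49, 9.76, 10.05 and 9.77. The heterozygous mice spread around the wildtype values on both sides, with replicates 2 and 3 below all wildtype mice and replicate 4 above them. The means were 9.62 ± 0.47 and 9.77 ± 0.20, a difference of -0.15 (SE 0.21, interval -0.61 to 0.31), or 90.0% of the wildtype level. The other probe sets of Ccnd1 gave -0.10 (SE 0.25) for 1417420_at and -0.49 (SE 0.35) for 1417419_at, so all 3 pointed the same way. Heterozygous replicate 3 was the lowest of all 10 mice on all 3 probe sets, at 6.42 on 1417419_at. Without this mouse the difference on the brightest probe set was -0.0035, and without heterozygous replicate 4, the highest mouse, it was -0.30. Heterozygous replicate 3 had the lowest stromal mean, 8.91, and the highest Gapdh 3′ minus 5′ difference of the 10 mice, 3.70. Its beta-actin difference was 3.43, while heterozygous replicate 4 had the highest, 3.65. Whether RNA shortening bears on the values of replicate 3 was not tested. Over the 10 mice Ccnd1 correlated with the stromal mean at r = 0.645 (permutation p = 0.0448) and rho = 0.527 (p = 0.124), with r = 0.539 without the 2 mice farthest from the stromal median. Adjusted over the 60 pairs of gene and marker list this did not pass (adjusted p = 0.448 and 0.676). With the stromal mean as a covariate the Ccnd1 difference was 0.20 (unadjusted p = 0.386), against -0.15 without it.

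Cyclin D2, encoded by Ccnd2, is the main D cyclin of mouse beta cells and is read by 7 probe sets here. The brightest, 1455956_x_at, gave 13.25, 12.60, 13.18, 13.23 and 13.58 in heterozygous mice. Wildtype mice gave 13.36, 12.85, 13.54, 13.30 and 13.22. In each genotype replicate 2 was the lowest mouse, and the other 8 mice lay between 13.18 and 13.58. The means were 13.17 ± 0.35 and 13.26 ± 0.25, with a difference of -0.087 (SE 0.18, interval -0.49 to 0.31). The next probe set, 1416122_at, which carries no mark for binding elsewhere, gave -0.12 (SE 0.19). Of the 7 differences 5 were negative and 2 positive, from -0.12 to 0.22. The positive ones were 0.22 (SE 0.24) for 1448229_s_at and 0.19 (SE 0.24) for 1416123_at. The mean over all 7 probe sets of each mouse gave 0.0092. Without heterozygous replicate 2 the brightest probe set gave 0.054 instead. The sign of the Ccnd2 difference thus varied with the probe set and with 1 mouse, and the interval of its brightest probe set spans 0.714-fold to 1.24-fold.

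Cyclin D3, encoded by Ccnd3, is the D cyclin typical of lymphocytes and differentiated cells, and by brightest probe set it had the most negative mean difference of the 10 genes. By the mean of each gene's probe sets above the filter, the difference was more negative for Ccnd1, at -0.25, than for Ccnd3, at -0.20. Its probe set 1415907_at gave 7.65, 7.13, 7.67, 7.61 and 7.24 in heterozygous mice. In wildtype mice the values were 7.82, 8.24, 7.57, 7.66 and 7.39. All 5 heterozygous mice lay below the wildtype mean, although only replicates 2 and 5 lay below every wildtype mouse. The means were 7.46 ± 0.26 and 7.74 ± 0.32, with a difference of -0.28 (SE 0.17, interval -0.66 to 0.10, unadjusted p = 0.137). Heterozygous replicates 2 and 5 are the mice with high lymphocyte markers, and without them the difference was -0.093. Without wildtype replicate 2, the highest mouse, it was -0.15. Over the 10 mice Ccnd3 correlated with the lymphocyte mean at r = -0.755 (permutation p = 0.00876) but at rho = -0.370 (p = 0.297), and at r = -0.376 without the 2 mice farthest from the lymphocyte median. The relation rests on those mice and had an adjusted p of 0.274 over the 60 pairs. With the lymphocyte mean as a covariate the Ccnd3 difference was -0.13 (unadjusted p = 0.400, adjusted p = 0.9999), against -0.28 without it. The second probe set, 1438805_at, lay near the filter value at 4.23 to 4.29 in all heterozygous mice. In wildtype mice it lay at 4.19 to 4.26 with replicate 3 alone at 4.99, and its difference was -0.12 (SE 0.15).

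**Figure D2:**
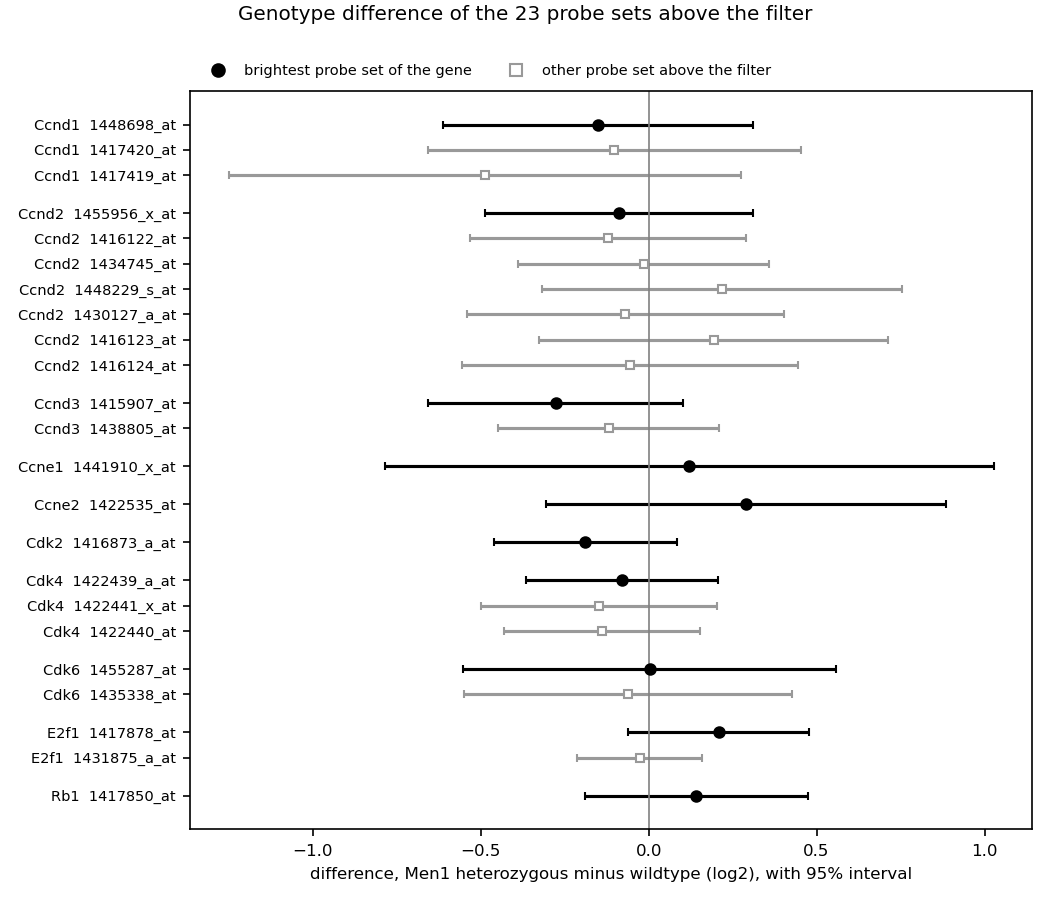
Difference between Men1 heterozygous and wildtype islets (log2) for the 23 probe sets above the filter, with 95% intervals from limma; filled circles are the brightest probe set of a gene and open squares its others. Every interval holds 0, and the intervals of Ccne1 and of 1417419_at of Ccnd1 are among the widest.

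Cdk4 encodes the kinase partner of D cyclins that beta cells need. On 1422439_a_at it stood at 9.88, 9.84, 9.56, 10.01 and 10.01 in heterozygous mice. Wildtype mice stood at 9.97, 9.65, 10.14, 10.14 and 9.79. The heterozygous values lay within the wildtype range apart from replicate 3, which was the lowest mouse on all 3 Cdk4 probe sets. The means were 9.86 ± 0.18 and 9.94 ± 0.22, a difference of -0.079 (SE 0.13, interval -0.36 to 0.21). It was -0.0043 without heterozygous replicate 3 and -0.15 without wildtype replicate 2. The other probe sets gave -0.15 (SE 0.16) for 1422441_x_at and -0.14 (SE 0.13) for 1422440_at. With the stromal mean as a covariate the brightest gave 0.049. The residual SD of its brightest probe set, 0.20, was larger than that of 34.6% of all probe sets compared, and that of 1422441_x_at, 0.26, than that of 55.7%.

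Cdk6 encodes the other kinase of D cyclins. Its probe set 1455287_at gave 7.14, 7.41, 7.58, 7.55 and 6.93 in heterozygous mice. Wildtype mice gave 6.58, 8.11, 7.26, 7.53 and 7.11, so the wildtype group held both the lowest and the highest mouse. The means were 7.32 ± 0.28 and 7.32 ± 0.56, with a difference of 0.0027 (SE 0.25, interval -0.55 to 0.56). The second probe set, 1435338_at, gave -0.061 (SE 0.22). With intervals this wide, near-equal means do not show equal levels, since changes of up to 1.47-fold remain within the interval of the first. Its residual SD of 0.44 exceeded that of 87.2% of all probe sets compared.

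Rb1 encodes RB, the pocket protein that holds E2F in check. On 1417850_at it stood at 8.64, 8.73, 8.60, 8.94 and 9.18 in heterozygous mice. In wildtype mice it stood at 8.59, 8.40, 8.99, 8.52 and 8.88. The groups overlapped throughout, with heterozygous replicate 5 the highest and wildtype replicate 2 the lowest mouse. The means were 8.82 ± 0.24 and 8.68 ± 0.25, a difference of 0.14 (SE 0.15, interval -0.19 to 0.47). It was 0.052 without heterozygous replicate 5, 0.072 without wildtype replicate 2 and 0.22 without wildtype replicate 3. Rb1 correlated with the acinar mean at r = -0.716 (permutation p = 0.0182, adjusted p = 0.274) and rho = -0.624 (p = 0.0609), and at r = -0.387 without the 2 mice farthest from the acinar median. The acinar mean ran only from 16.37 to 16.60 over the 10 mice, near the highest value on the arrays, 17.58. In the fit with the acinar mean as a covariate the Rb1 difference was 0.076. The second probe set, 1444400_at, stayed at or below 2.61 and gives no second reading.

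E2f1 encodes the E2F factor that activates S phase genes, and it had the smallest p of the 10 genes. On 1417878_at it stood at 5.84, 5.32, 5.56, 5.58 and 5.94 in heterozygous mice. Wildtype mice stood at 5.45, 5.39, 5.61, 5.37 and 5.39. Of the 5 heterozygous mice 4 lay above the wildtype mean, and replicates 1 and 5 lay above every wildtype mouse, while replicate 2 was the lowest of all 10. The means were 5.65 ± 0.24 and 5.44 ± 0.097, a difference of 0.21 (SE 0.12, interval -0.060 to 0.48, unadjusted p = 0.115, adjusted p = 0.9999), or 116% of the wildtype level. Without heterozygous replicate 2 it was 0.29 (unadjusted p = 0.0259, adjusted p = 0.9998), and without heterozygous replicate 5 it was 0.14 (unadjusted p = 0.259, adjusted p = 0.954). The second probe set, 1431875_a_at, was dim at 4.31 to 4.62 and gave -0.027 (SE 0.084). Whether the pair disagree was tested on the per-mouse gap between them, which was 1.13 in heterozygous and 0.894 in wildtype islets. The two-sided exact permutation p was 0.0317, with an adjusted p of 0.310 over the 13 pairs of probe sets compared in this way. E2f1 also correlated with the acinar mean at r = -0.721 (permutation p = 0.0169, adjusted p = 0.274) and rho = -0.636 (p = 0.0536), and at r = -0.363 without the 2 mice farthest from the acinar median. With the acinar mean, narrow in range as described for Rb1, as a covariate the E2f1 difference was 0.16.

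The E cyclins act after RB and E2F, and both were more variable between mice than most transcripts. Ccne1, a classical E2F target, had a residual SD of 0.75, above that of 97.9% of all probe sets compared. On 1441910_x_at it stood at 6.04, 6.35, 6.50, 6.85 and 6.20 in heterozygous mice. In wildtype mice it stood at 7.06, 6.74, 4.55, 6.21 and 6.78, with replicate 3 far below the rest. The wide spread of Ccne1 thus lies in the group that holds this mouse, with an SD of 1.01 against 0.31 in heterozygous mice. The means were 6.39 ± 0.31 and 6.27 ± 1.01, a difference of 0.12 (SE 0.41, interval -0.79 to 1.03). Wildtype replicate 3 decides the sign, since without it the difference was -0.31 (unadjusted p = 0.161).

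The other Ccne1 probe set, 1416492_at, did not pass the filter because it lay above 4 in 2 mice, both wildtype. It stood at 3.69, 2.89, 3.15, 3.94 and 3.68 in heterozygous mice. Wildtype mice stood at 5.17, 3.95, 3.31, 3.67 and 5.30, where replicates 1 and 5 are the mice above 4. In the fit without a filter its difference was -0.81 (SE 0.42, interval -1.76 to 0.13, unadjusted p = 0.0833, adjusted p = 0.99999). All 5 heterozygous mice lay below the wildtype mean, but the groups overlapped. Across the mice this pair of probe sets correlated at r = 0.522 (permutation p = 0.137) and rho = 0.60 (p = 0.0727), with r = 0.502 without the 2 mice farthest from the median of the brighter one. The genotype difference of Ccne1 thus has opposite signs on its probe sets and passes the test on neither.

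Ccne2 encodes the second E cyclin and had the most positive mean difference by brightest probe set. On its 1 probe set, 1422535_at, it stood at 6.36, 5.53, 5.24, 6.03 and 6.74 in heterozygous mice. Wildtype mice stood at 5.54, 5.41, 5.49, 5.90 and 6.11. The heterozygous mice held both the lowest mouse, replicate 3, and the highest, replicate 5. The means were 5.98 ± 0.61 and 5.69 ± 0.30, a difference of 0.29 (SE 0.27, interval -0.31 to 0.88, unadjusted p = 0.306). Without heterozygous replicate 5 it was 0.10, and without heterozygous replicate 3 it was 0.47. Ccne2 correlated with the acinar mean at r = -0.646 (permutation p = 0.0420, adjusted p = 0.448) and rho = -0.539 (p = 0.113). Without the 2 mice farthest from the acinar median, r was -0.554. With the acinar mean, narrow in range as described for Rb1, as a covariate the Ccne2 difference was 0.17.

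Cdk2, the partner of the E cyclins, lay at the edge of detection. On 1416873_a_at it stood at 4.02, 4.15, 3.94, 3.93 and 4.42 in heterozygous mice. Wildtype mice stood at 4.21, 4.41, 4.51, 4.09 and 4.18. The mice below 4 were heterozygous replicates 3 and 4, and 4 of the 5 heterozygous mice lay below the wildtype mean. The means were 4.09 ± 0.21 and 4.28 ± 0.17, a difference of -0.19 (SE 0.12, interval -0.46 to 0.085, unadjusted p = 0.158). Without heterozygous replicates 2 and 5 it was -0.32 (unadjusted p = 0.0271, adjusted p = 0.9996). Over the mice Cdk2 correlated with the mean of 9 endothelial genes at r = 0.722 (permutation p = 0.0182, adjusted p = 0.274) and rho = 0.503 (p = 0.144), and at r = 0.461 without the 2 mice farthest from the endothelial median. That mean was 7.74 ± 0.25 in heterozygous and 8.05 ± 0.20 in wildtype islets.

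Where a gene has several probe sets, they were asked whether they order the mice alike. Of 30 pairs of probe sets of 1 gene, 29 correlated positively across the 10 mice, with a median Pearson r of 0.735, and 18 passed an adjusted permutation p of 0.05 over the 30 pairs. For Spearman's rho 12 passed. The Cdk6 pair correlated at r = 0.924 (permutation p = 0.00021, adjusted p = 0.0011) and rho = 0.842 (p = 0.0038), and at 0.884 without the 2 farthest mice. The 3 Cdk4 pairs ran from 0.690 to 0.838 and all passed by Pearson's r, while by Spearman's rho 1 passed and the other two had an adjusted p of 0.0514. For Ccnd1, 1417420_at and 1417419_at correlated at r = 0.895 (permutation p = 0.00043, adjusted p = 0.00161) and rho = 0.867 (p = 0.00204), and at 0.977 without the 2 farthest mice. Both followed 1448698_at less closely, at 0.626 and 0.677, and at 0.225 and -0.032 without the 2 mice farthest from its median, so that those relations rest on these mice. The E2f1 pair (r = 0.423, permutation p = 0.226) and the Ccnd3 pair (r = -0.119, permutation p = 0.564) did not pass, and each contains a dim probe set.

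The 7 Ccnd2 probe sets were split by average-linkage clustering of these correlations into sets of 4 and 3, which is a description and no test. Within the first set (1455956_x_at, 1416122_at, 1434745_at and 1430127_a_at) the 6 correlations ran from 0.821 to 0.963. Within the second (1448229_s_at, 1416123_at and 1416124_at) the 3 ran from 0.695 to 0.954, and the 12 between the sets ran from 0.358 to 0.808. Without the 2 mice farthest from the median of the brighter of each pair, the first set ran from 0.792 to 0.964. The second set then ran from 0.502 to 0.840, and the pairs between the sets from -0.115 to 0.700. The lowest was 1455956_x_at with 1416124_at, which rests on those mice. With all 10 mice it had r = 0.761 (adjusted permutation p = 0.0309) and rho = 0.309. Both positive Ccnd2 differences came from the second set. On all 7 probe sets heterozygous replicate 2 was the lowest heterozygous mouse, and on 6 of 7 wildtype replicate 2 was the lowest wildtype mouse. Of the 13 pairs of a brightest and another probe set, 9 agreed in the sign of the genotype difference and 4 did not. Between 1455956_x_at and 1448229_s_at of Ccnd2 the gap was 2.08 in heterozygous and 2.39 in wildtype islets (exact permutation p = 0.0476, adjusted p = 0.310). With adjustment, 0 of the 13 gaps passed, and 2 did at an unadjusted p under 0.05.

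**Figure D3:**
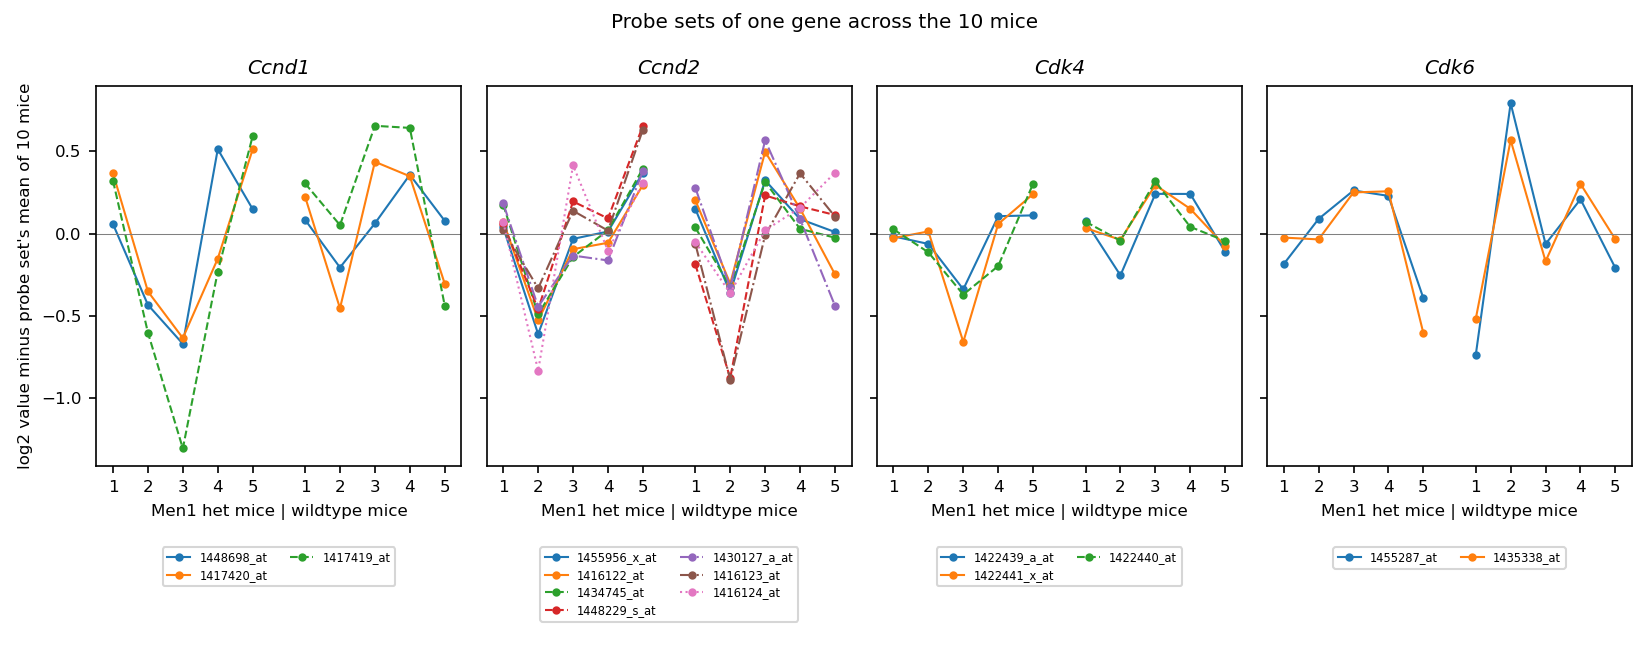
Log2 value of each probe set minus its own mean over the 10 mice, for Ccnd1, Ccnd2, Cdk4 and Cdk6, Men1 heterozygous mice 1 to 5 left and wildtype mice 1 to 5 right in each panel; lines only join the points of 1 probe set. Heterozygous mouse 3 is the lowest on all 3 probe sets of Ccnd1 and of Cdk4 and wildtype mouse 2 the highest on both of Cdk6, while the highest mouse differs between the 3 probe sets of Ccnd1.

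Further genes of the pathway were read from lists of textbook members, by the brightest probe set above the filter. Of 13 pocket protein, E2F and DP genes 9 were measured, 6 higher and 3 lower on average, with a median of 0.049. Over all genes the median was 0.014 and 54.4% were higher. E2f2, E2f4, E2f7 and E2f8 did not pass the filter. The smallest p beside E2f1 belonged to Tfdp2, a DNA-binding partner of E2F, which averaged 9.18 ± 0.35 in the heterozygous group and 9.01 ± 0.23 in wildtype (a difference of 0.17, SE 0.18). Of 7 CDK inhibitor genes 6 were measured, 3 higher and 3 lower, with a median of 0.0096. Cdkn2b, which blocks CDK4 and CDK6, stood at 7.69 to 8.03 in heterozygous and 7.03 to 7.77 in wildtype mice (0.50, SE 0.15, unadjusted p = 0.00802, adjusted p = 0.9999). Cdkn1c, an inhibitor of CDK2 complexes, stood at 4.84 to 5.74 in heterozygous and 5.34 to 5.93 in wildtype mice (-0.34, SE 0.18).

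The genes that activate or degrade the cyclin kinases showed no common direction. Of 17 such genes 15 were measured, 8 higher and 7 lower, with a median of 0.0012. Ccnh, the cyclin of the CDK-activating kinase, averaged 10.5 ± 0.32 in the heterozygous group and 10.2 ± 0.24 in wildtype (a difference of 0.32, SE 0.17). Its kinase Cdk7 stood at 8.17 ± 0.33 and 8.41 ± 0.095 (-0.24, SE 0.15), and each gene pointed 1 way on all 3 of its probe sets. Of 20 E2F targets of DNA synthesis 12 were measured, 6 higher and 6 lower, with a median of 0.017. Tyms, Tk1, Cdc6, Cdc45, Pola1, Rfc3 and Gins2 did not pass the filter. Pcna, the sliding clamp of DNA polymerase, averaged 9.79 ± 0.27 in the heterozygous group and 9.95 ± 0.16 in wildtype (a difference of -0.16, SE 0.14). The helicase subunit gene Mcm6 stood at 8.22 ± 0.49 and 8.43 ± 0.12 (-0.21, SE 0.21), with its other probe set going the opposite way. Of 12 markers of dividing cells 3 were measured (Mki67, Top2a and Cdc20), 1 had no named probe set, and 8 did not pass the filter, Cdk1, Plk1 and Aurkb among them. Of the 3 measured, 1 was higher and 2 were lower on average in heterozygous islets. Their mean was 6.72 ± 0.29 in heterozygous and 6.93 ± 0.48 in wildtype islets.

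Of 20 genes that pass mitogen signals to the D cyclins 16 were measured, 5 higher and 11 lower, where 54.4% of all genes were higher. Their median was -0.045. Pdgfra, a growth factor receptor also listed among the stromal markers, averaged 5.91 ± 0.49 in the heterozygous group and 6.68 ± 0.34 in wildtype (a difference of -0.78, SE 0.24, unadjusted p = 0.00759, adjusted p = 0.9999). Myc stood at 6.58 ± 0.59 and 6.14 ± 0.47 (0.44, SE 0.30). In these 5 lists limma called 0 genes over all probe sets, where 0% of all genes were called. An unadjusted p under 0.05 was seen for 1 of the 6 CDK inhibitor genes, 1 of the 16 mitogen genes and 0 in each other list. Over all probe sets 4.09% had such a p. Between the 10 members and 6 marker lists, 0 of 60 correlations passed after adjustment, and 6 had an unadjusted Pearson p under 0.05.

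**Figure D4:**
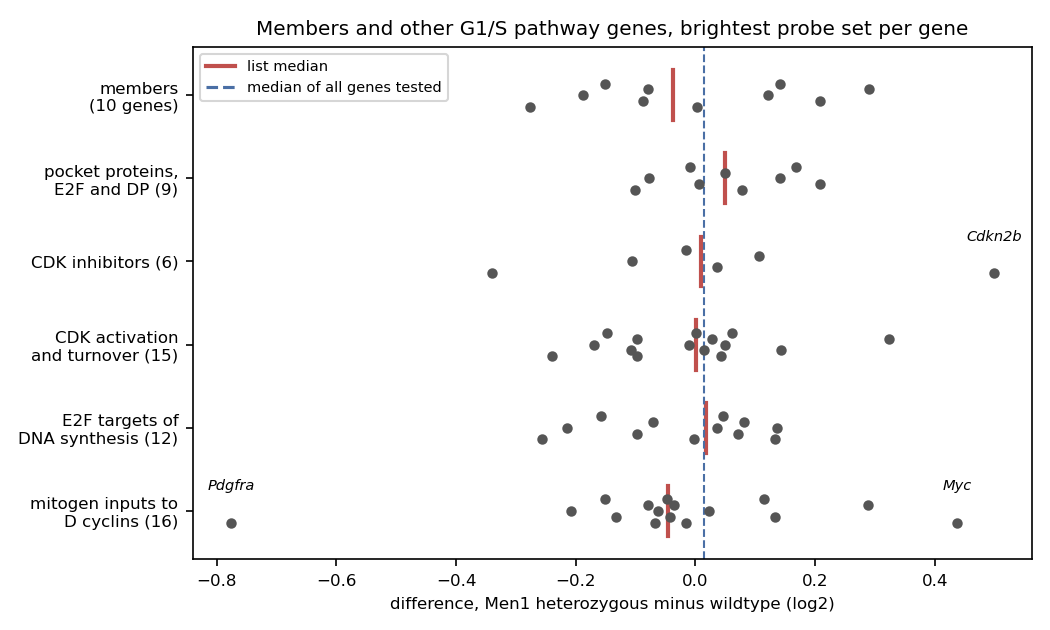
Difference between Men1 heterozygous and wildtype islets (log2) for the 10 genes and for 5 lists of further G1/S genes, 1 point per gene (brightest probe set), with the number measured in brackets, the list median as a red bar and the median of all genes tested, 0.014, as a dashed line. List medians lie between -0.045 and 0.049, and Cdkn2b, Myc and Pdgfra are the labelled points beyond 0.4.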

How the data were processed

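Per the labels' protocols, 100 ng of RNA from about 100 islets per mouse went through 2 amplification cycles. The authors deposited log2 values made with GCRMA (background by probe sequence, normalization between arrays, probe summary), per the submitters' processing notes. No GCRMA version was given in the sources used here. Values ran from 0.654 to 17.58, and the number of arrays limits the precision.

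Gene names came from the platform annotation, and all 10 symbols matched RefSeq by gene ID. After removal of 64 controls, probe sets above 4 on at least 5 arrays were fitted in R 4.3.3 with limma 3.58.1 (lmFit, then eBayes), genotype being the only term, with Benjamini-Hochberg adjustment over 18567. All p-values are two-sided. The fit was tested on simulated data. Correlations used 100000 permutations (all orders for 8 mice), and gaps between probe sets all assignments of 5 of the 10 mice. The named genes are the 10 members, Men1, and the 2 of each pathway list with the smallest p. Marker genes are named as such. The members and lists were chosen with earlier results of these data known. Alternatives were the filter, normalization, variance prior, array weights, a replicate block, marker means as covariates, probe set choice and leaving out mice.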

Additional observations from a re-analysis of the deposited data

Results flagged for a closer look

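In 46 sets of 5 mice (23 probe sets, each genotype), 2 held a mouse far from the others by Dixon's criterion, where chance marks about 1 in 20. On 1438805_at of Ccnd3, wildtype replicate 3 stood at 4.99, with the next mouse at 4.26, and the gap was 0.902 of the range. On 1431875_a_at of E2f1, heterozygous replicate 2 stood at 4.31, with the next mouse at 4.54, a gap of 0.734 of the range. Both probe sets are the dimmer one of their gene above the filter.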

How the results depend on the processing

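No alternative gave a member probe set an adjusted p under 0.05, and limma called 0 of all probe sets in each, also at 0.10 and without a filter (1097 unadjusted p under 0.05, against 760). Signs of small differences did change. Cdk6 gave -0.020 after quantile normalization, -0.013 after median centring, -0.029 as the mean of its probe sets and -0.061 on the second brightest. Ccnd2 gave 0.0092 as the mean of its probe sets, and E2f1 -0.027 on its second brightest. With the stromal mean as a covariate Ccnd1 gave 0.20 and Cdk4 0.049. Leaving out single mice, differences ranged from -0.30 to -0.0035 for Ccnd1, -0.19 to 0.054 for Ccnd2, -0.31 to 0.32 for Ccne1 and -0.18 to 0.20 for Cdk6. The sign held in every such run for Ccnd1, Ccnd3, Ccne2, Cdk2, Cdk4, E2f1 and Rb1. The cause of these changes was not tested. Without heterozygous replicates 2 and 5, 8 probe set pairs correlated after adjustment in place of 18, with fewer mice. The median of the pocket protein and E2F list was 0.0057 without a filter, and 0.0064 to 0.075 without single mice. No pairing of mice by the replicate numbers of the labels was seen (correlations of same-numbered deviations -0.28 to 0.11, and 1 of 5 heterozygous mice closest to its own number). Whether same-numbered mice shared a litter or a processing day was not tested. With the replicate block limma called 0 members, as without it, with 786 unadjusted p under 0.05 over all probe sets.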

Other observations

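Correlations among the 10 genes themselves, a comparison added after the data were seen, passed in 0 of 45 pairs after adjustment, and 3 pairs had an unadjusted p under 0.05. Ccnd1 and Cdk4 ran together over the mice at r = 0.771 (permutation p = 0.00968, adjusted p = 0.436) and rho = 0.697 (p = 0.0317), with r = 0.65 without the 2 mice farthest from the Ccnd1 median. Ccnd3 and Rb1 ran in opposite directions at r = -0.691 (permutation p = 0.0247, adjusted p = 0.493) and rho = -0.806 (p = 0.00741), with r = -0.815 without the 2 farthest mice. For Ccne2 and E2f1, r = 0.672 (permutation p = 0.0329) became -0.159 without the 2 farthest mice.

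Of all named probe sets above the filter, those most like a member over the 10 mice are given here by Pearson r as a description, since the best match among so many is high by selection. Ccnd1 was matched most closely by Gosr2 (0.966) and Ttc26 (0.964), Ccnd2 by Ttr (0.965) and Tspan31 (0.959), and Ccnd3 by Rapgef1 (0.973) and Rgs14 (0.926). Cdk4 was matched by Slc29a1 (0.935) and Psmd2 (0.920), Cdk6 by Mapkapk3 (0.956) and Apex1 (0.935), and Cdk2 by Vps26a (0.920) and Gkap1 (0.917). E2f1 was matched by Bcar1 (0.984) and Ssb (0.978), Rb1 by Slc35a2 (0.962) and Cnot7 (0.960), Ccne1 by Ccdc180 (0.960) and Fahd1 (0.924), and Ccne2 by Lrrc40 (0.958) and Tmem41b (0.947).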
